A study of Homo sapiens with 6 samples.

Results

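The MYC-MAX network genes were followed in BaF3-T315I cells exposed to the histone deacetylase inhibitor I13. The 10 genes Myc, Mycn, Max, Mxd1, Mxd3, Mxd4, Mxi1, Mnt, Mlx and Mga were chosen by name, and all 10 were among the 22413 genes of the deposited table. The parental BaF3 is a murine interleukin-3 dependent line of pro-B origin, and BaF3-T315I cells stably carry BCR-ABL with the T315I mutation of its kinase domain. The study's description of the culture medium names no interleukin-3. All 6 samples came from BaF3-T315I cells. The I13 group (3 samples) received the compound at 1.1 µM over 48 h, and the control group also held 3 samples. The time and vehicle of the control are not given in the labels. The labels do not say whether the replicates came from separate cultures, and the study's methods speak of 3 independent experiments in general, without naming the sequenced samples. The p-values therefore measure the spread between these samples, which may be technical. The labels name the organism as human, whereas the cells are described as murine and all 22413 identifiers are mouse Ensembl identifiers, so the values were used as mouse genes.

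MYC is a basic helix-loop-helix leucine zipper protein that binds DNA at E-boxes after pairing with MAX, and it drives genes of growth, ribosome production and the cell cycle. MAX also pairs with the MXD proteins (MXD1, MXI1, MXD3 and MXD4) and with MNT, which bring the SIN3 co-repressor and its histone deacetylases to the same sites, and with MGA, the scaffold of a Polycomb complex. MLX is a parallel partner that binds MondoA (encoded by Mlxip), MNT, MXD1 and MXD4. MYC is known to be needed for transformation by BCR-ABL, and the balance between MYC and MXD proteins usually shifts towards MXD as blood cells mature.

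mRNA was read as FPKM, a fragment count scaled to gene length and library size, so levels can be compared between genes. The libraries held 16762119 to 17722950 fragments. In log2(FPKM + 0.1), Pearson correlations across genes were 0.962 to 0.968 within the groups and 0.945 to 0.967 between them, and 44.2% of the sum of squares over all tested genes lay between replicate numbers against 27.7% between conditions, which take 2 and 1 of the 5 degrees of freedom. The interleukin-3 receptor genes Csf2rb (239 to 838 FPKM) and Il3ra (9.07 to 18.2 FPKM), together with Ptprc and Cd79a, were well expressed in every sample, whereas the pro-B genes Vpreb1, Igll1, Ebf1 and Pax5 stayed at or below 0.107 FPKM. Sample values of a gene are always listed in the order of replicates 1, 2 and 3. The 10 of 14 markers of BaF3 cells found in the table summed to 472 to 929 FPKM in the controls and 951 to 1699 FPKM after I13, mostly from Csf2rb and Csf2rb2. The 6 of 7 T cell markers found summed to at most 0.66 FPKM in any sample, and the 5 of 7 erythroid markers to 1.02 to 1.41 FPKM in the controls and 2.65 to 8.50 FPKM after I13. The part of these shifts in the results was not tested.

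The comparison of I13 with control used limma on log2(FPKM + 0.1) in the 12163 genes whose FPKM averaged 0.5 or more, and all 10 members were tested. Calls required a Benjamini-Hochberg adjusted p under 0.05, taken over all genes tested, and a log2 fold change of 0.58 or more in either direction, here elevated or decreased. No member was called in this fit (0 of 10), where 0.0411% of all genes tested were called, while 3 of 10 members (Myc, Mycn and Mlx) had an unadjusted p below 0.05 against 18.6% of all genes. Samples with the same replicate number deviated together, and limma with this number as a block (the blocked fit) called 1 of 10 members, Mycn, as elevated, where 1.36% of all genes tested were elevated. The block was chosen from these same data, so all blocked p-values depend on that choice. The groups did not overlap in 3 of 10 members, against 25.2% of all genes tested, so this share lay close to the background. For 6 of 10 members all 3 pairs of the same number differed in 1 direction, beside 51.5% of all genes tested. The median log2 fold change of the members was 0.05, beside -0.01 over all genes tested. In these bulk samples, a change in RNA per cell and a change in the share of cells that express a gene cannot be told apart.

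**Figure D1:**
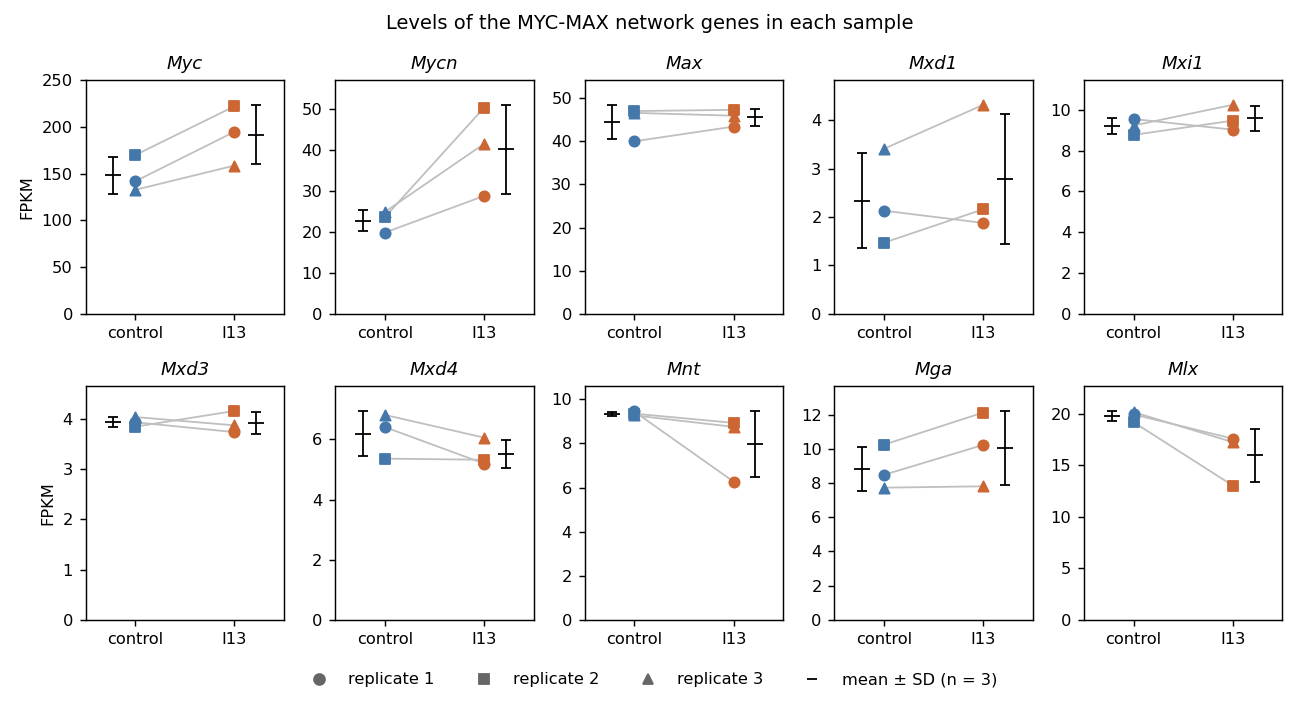
FPKM of each member (vertical axes, starting at 0 and scaled per gene) in control and I13 samples, with grey lines joining samples of the same replicate number and bars for mean ± SD (n = 3). Mycn is higher in every I13 sample than in every control, Mnt and Mlx are lower, and the groups of the other members overlap.

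The activators Myc and Mycn were both higher after I13, and Mycn showed the largest difference of the members. Mycn, the paralog best known from embryonic tissue and early progenitor cells, measured 19.8, 23.6 and 24.9 FPKM in the controls and 28.8, 50.4 and 41.5 FPKM after I13. Every I13 sample lay above every control sample, and replicate 1 was the lowest of both groups. The mean went from 22.7 ± 2.62 to 40.2 ± 10.8 FPKM (SD, n = 3 each), or 1.77-fold, and the log2 fold change was 0.79 (SE 0.20, limma adjusted p = 0.131). With the replicate block the SE was 0.12 and the limma adjusted p was 0.0447, so Mycn rose in that fit. The differences of the replicate 1, 2 and 3 pairs were 0.54, 1.09 and 0.74 on the log2 scale. The blocked call did not hold with any pair left out, with a limma adjusted p of 0.0504, 0.291 and 0.0962 without replicates 1, 2 and 3, each from 4 samples. Without replicate 2 or 3 no gene tested was called, though 1638 and 3160 had an unadjusted p under 0.05 from limma. The loss of the call in those 2 fits is therefore not particular to Mycn.

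Myc was by far the most abundant member and lay at the 97.9th percentile of the mean FPKM of all genes tested. It had control values of 142, 170 and 133 FPKM and I13 values of 195, 222 and 159 FPKM. Each I13 sample exceeded the control of its number, though I13 replicate 3 lay below control replicate 2, and replicate 2 was the highest and replicate 3 the lowest of both groups. The mean went from 148 ± 19.4 to 192 ± 31.8 FPKM (SD, n = 3 each), and the log2 fold change was 0.37 (SE 0.15, limma adjusted p = 0.252, 95% interval 0.02 to 0.72). With the block the limma adjusted p was 0.052, with an interval of 0.20 to 0.53, and only the fit of voom with the block gave an adjusted p below 0.05 (0.0167), as it did for 12.4% of all genes. The log2 fold change of Myc lay under the threshold of 0.58 in every fit made.

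**Figure D2:**
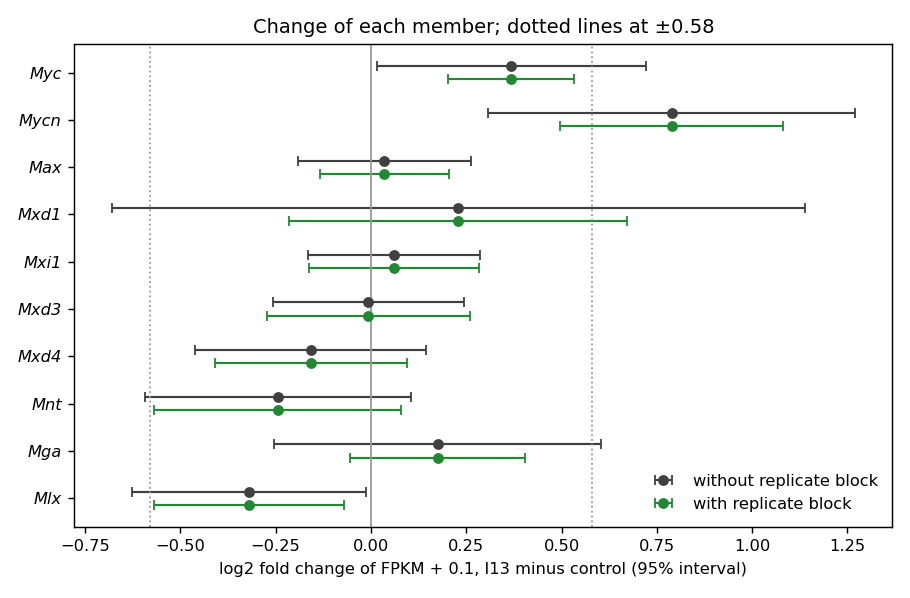
Log2 fold change of FPKM + 0.1, I13 minus control (horizontal axis), of each member with its 95% interval from limma, without (dark) and with (green) the replicate block; dotted lines mark 0.58 in either direction. Mycn at 0.79 is the single member beyond the dotted lines.

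Max, the partner that MYC, the MXD proteins, MNT and MGA share, was nearly level. It gave 40.0, 47.0 and 46.6 FPKM without I13 and 43.4, 47.3 and 46.0 FPKM with it. The groups overlapped, and replicate 1 was the lowest of both. The log2 fold change was 0.04, with a 95% interval of -0.19 to 0.26 (limma adjusted p = 0.872), which leaves out a change as large as the threshold of 0.58. The FPKM of Myc was 2.84 to 3.61 times that of Max in the controls and 3.45 to 4.69 times after I13, and this ratio was higher in each of the 3 pairs while the groups overlapped.

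None of the 6 genes of repressors that pair with MAX was called in either fit, and their log2 fold changes had both signs. Mnt, the most widely expressed of these repressors, measured 9.45, 9.35 and 9.27 FPKM in the controls and 6.27, 8.94 and 8.75 FPKM after I13. All I13 samples lay below all controls, but I13 replicate 1 was far below the other I13 samples, and without it the log2 fold change of -0.24 (SE 0.15, limma adjusted p = 0.413) became -0.08. Mxd4, linked to the exit from the cell cycle, had control values of 6.41, 5.36 and 6.82 FPKM and I13 values of 5.20, 5.32 and 6.06 FPKM. It was lower in each of the 3 pairs, by as little as 0.01 on the log2 scale in the replicate 2 pair, and the log2 fold change was -0.16 (SE 0.13, limma adjusted p = 0.541). It was -0.09 without control replicate 3 and -0.26 without control replicate 2.

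Mxd1, the founding member of the MXD repressors and typically induced in maturing myeloid cells, had its highest values in replicate 3 of both groups. It gave 2.13, 1.47 and 3.41 FPKM without I13 and 1.88, 2.16 and 4.32 FPKM with it. Of the sum of squares of this gene, 86.3% lay between replicate numbers against 5.13% between conditions. The log2 fold change was 0.23 with an interval of -0.68 to 1.14 (limma adjusted p = 0.784), the widest of the members, which holds the threshold of 0.58 in both directions. Its sign depended on single libraries, with -0.05 without control replicate 2 and -0.13 without I13 replicate 3.

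Mga, the Polycomb scaffold that also carries a T-box domain, measured 8.48, 10.2 and 7.73 FPKM in the controls and 10.2, 12.1 and 7.81 FPKM after I13. It followed the same order of replicates as Myc within both groups, and it was higher in each of the 3 pairs. The log2 fold change was 0.17 (SE 0.18, limma adjusted p = 0.642). Without I13 replicate 2 it was 0.03. Mxi1, which is also known as MXD2, stayed between 8.77 and 10.2 FPKM in all 6 samples, with a log2 fold change of 0.06 and an interval of -0.17 to 0.28. Mxd3, the member of its group tied to S phase, stayed between 3.74 and 4.16 FPKM, with a log2 fold change of -0.01 and an interval of -0.26 to 0.24. The sign for Mxd3 turned positive, to 0.022 with the values rescaled to TPM and to 0.0053 with median-ratio scaling.

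Mlx, the partner of MondoA, had the lowest log2 fold change of the members. It had control values of 19.96, 19.2 and 20.2 FPKM and I13 values of 17.6, 13.04 and 17.3 FPKM. All I13 samples lay below all controls, and I13 replicate 2 lay furthest down. The mean went from 19.8 ± 0.511 to 16.0 ± 2.54 FPKM (SD, n = 3 each), and the log2 fold change was -0.32 (SE 0.13, limma adjusted p = 0.253, and 0.118 with the block). Without I13 replicate 2 the log2 fold change was -0.18.

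In the controls the order of the mean levels was Myc, Max, Mycn, Mlx, Mnt, Mxi1, Mga, Mxd4, Mxd3 and Mxd1. The ranges of neighbours overlapped for Mycn with Mlx, for Mnt with Mxi1 and for Mxi1 with Mga, and the other neighbours were apart. After I13 the order was Myc, Max, Mycn, Mlx, Mga, Mxi1, Mnt, Mxd4, Mxd3 and Mxd1, with overlaps for Max with Mycn, Mga with Mxi1, and Mxd3 with Mxd1. Both changes in the overlaps of Mycn rested on 1 library. Only I13 replicate 2 of Mycn (50.4 FPKM) reached the level of Max, and only control replicate 1 of Mycn (19.8 FPKM) lay within the range of Mlx. The summed FPKM of the 6 repressor genes was 39.8 ± 0.736 in the controls and 39.9 ± 3.10 after I13 (SD, n = 3 each), whereas that of Myc and Mycn was 171 ± 19.7 and 232 ± 36.9 (SD, n = 3 each). The ratio of these sums was 4.04, 4.95 and 3.89 in control replicates 1, 2 and 3 and 6.15, 6.46 and 4.87 in the I13 replicates. It was higher in each pair, and I13 replicate 3 lay just below control replicate 2. Mycn made up 12.2% to 15.8% of the summed FPKM of Myc and Mycn in the controls and 12.9% to 20.7% after I13. These sums and ratios are descriptions without a test.

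**Figure D3:**
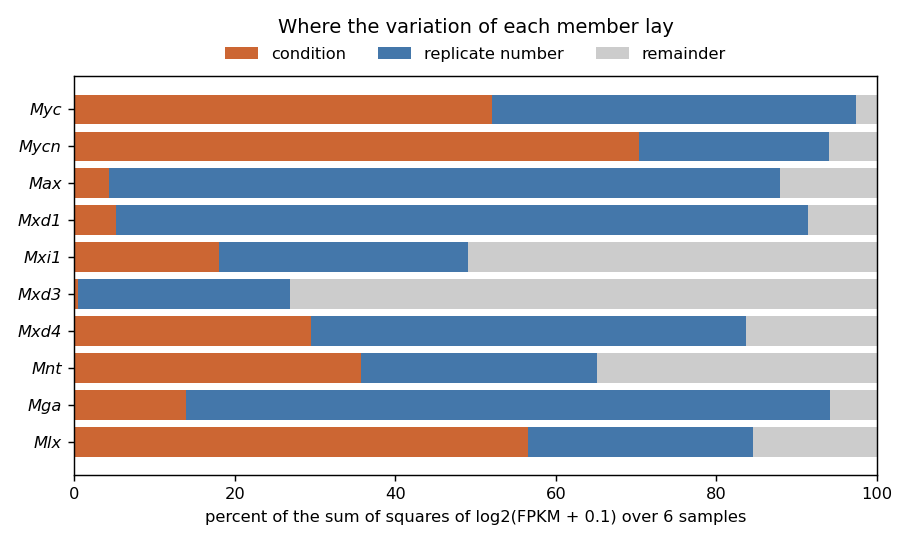
Percent of the sum of squares of log2(FPKM + 0.1) over the 6 samples (horizontal axis) that lay between conditions (orange), between replicate numbers (blue) and in the remainder (grey), for each member. Conditions took the largest part for Mycn (70.4%), Mlx (56.5%), Myc (52.0%) and, narrowly, Mnt (35.7%), replicate numbers for Mxd1 (86.3%), Max (83.6%), Mga (80.3%) and Mxd4 (54.3%), and the remainder for Mxi1 and Mxd3.

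The members rested on very different numbers of fragments. Myc had 6346 to 10114 fragments per library, and its coefficient of variation of 13.1% in the controls was far above the 1.19% that counting alone gives. Mxd3 had 137 to 148 fragments, and its coefficient of variation of 2.46% in the controls lay under the 8.31% of counting alone. For Mxd1, with 183 to 535 fragments, the spread of 42.3% in the controls exceeded the counting error of 5.86%. The counting error covers the sampling of fragments only.

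The genes whose pattern over the 6 samples was most like that of Myc, by Pearson's r of log2(FPKM + 0.1) among 7384 other genes averaging 5 FPKM or more, were Nupl1 (r = 0.996), Man1a2 (r = 0.994), Cfap97 (r = 0.992), Tm9sf3 (r = 0.991) and Taok1 (r = 0.990). Nupl1, which encodes a nucleoporin, gave 22.4, 24.8 and 21.4 FPKM without I13 and 27.6, 30.4 and 23.7 FPKM with it, and shared the order of Myc. Among the members with such a mean, Mga had the highest r with Myc (0.909), Mycn had 0.669, and Mxd4 had the lowest (-0.903). The 6 points share their libraries, so these values only describe them.

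The genes around the network were read from lists written from general knowledge with earlier results of these data known, and none of their genes was called in the fit without the block. Of 77 genes commonly given as activated by MYC, 75 were tested, and 49 were lower and 26 higher after I13, where 49.2% of all genes tested were higher. Their median log2 fold change was -0.06, and 11 had an unadjusted p below 0.05 with a lower level, against 1 with a higher level, or 16.0% in all beside 18.6% of all genes. Ncl, the nucleolar protein nucleolin, measured 187, 250 and 154 FPKM in the controls and 281, 284 and 195 FPKM after I13, a log2 fold change of 0.37 (limma adjusted p = 0.391). Without control replicate 3 the value for Ncl was 0.21, and without control replicate 2 it was 0.56. Tfrc, the transferrin receptor, had 0.64 (limma adjusted p = 0.236), and 0.39 without control replicate 1. Shmt2, the mitochondrial serine hydroxymethyltransferase, had -0.57 (limma adjusted p = 0.205). Ranbp1, a regulator of nuclear transport whose copies in the genome may share reads, had -0.53 on a low and scattered level of 0.645 to 5.25 FPKM (limma adjusted p = 0.717).

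With the block, 4 of these 75 genes (5.33%) had an adjusted p below 0.05, all lower after I13 and under the fold change threshold, where 2.99% of all genes tested did in either direction. They were Cad and Impdh2 of nucleotide synthesis, Dctpp1 of nucleotide clearance and the G1 kinase gene Cdk4, named after their values were seen. Impdh2 went from 142 ± 5.34 to 110 ± 2.99 FPKM (SD, n = 3 each), and the log2 fold change was -0.36 (limma adjusted p = 0.0478 with the block). The log2 fold changes of Cdk4, Dctpp1 and Cad were -0.47, -0.40 and -0.38.

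Of 20 genes commonly given as repressed by MYC, 13 were tested, and 11 were higher after I13, with a median log2 fold change of 0.25, and 5 had all I13 samples above all controls, where 9.82% of all genes tested did. In 1, Cdkn1b, all I13 samples lay below all controls. Taken in either direction, the groups did not overlap in 46.2% of the list, beside 25.2% of all genes tested. Gadd45g, a stress and growth arrest gene, had control values of 2.89, 4.69 and 6.29 FPKM and I13 values of 7.26, 11.3 and 8.52 FPKM. Its log2 fold change was 0.99 (SE 0.29, limma adjusted p = 0.157, and 0.057 with the block). Btg2, an antiproliferative gene, had 0.90 (limma adjusted p = 0.221), and 0.51 without control replicate 2. Cdkn1b, which encodes the cell cycle inhibitor p27, had -0.27 (limma adjusted p = 0.223), and Gas2 had -0.01, with a positive sign in TPM, with median-ratio scaling, with a pseudocount of 1 and in voom with the block. None of the 13 had a limma adjusted p below 0.05 with the block, where 2.99% of all genes tested did. In voom with the block 3 were called as elevated, beside 3.08% of all genes. They were Gadd45g, Btg2 and Klf6, the last named after its values were seen. Klf6 had a log2 fold change of 0.66, with 0.31 without I13 replicate 3 and 0.42 without control replicate 2.

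**Figure D4:**
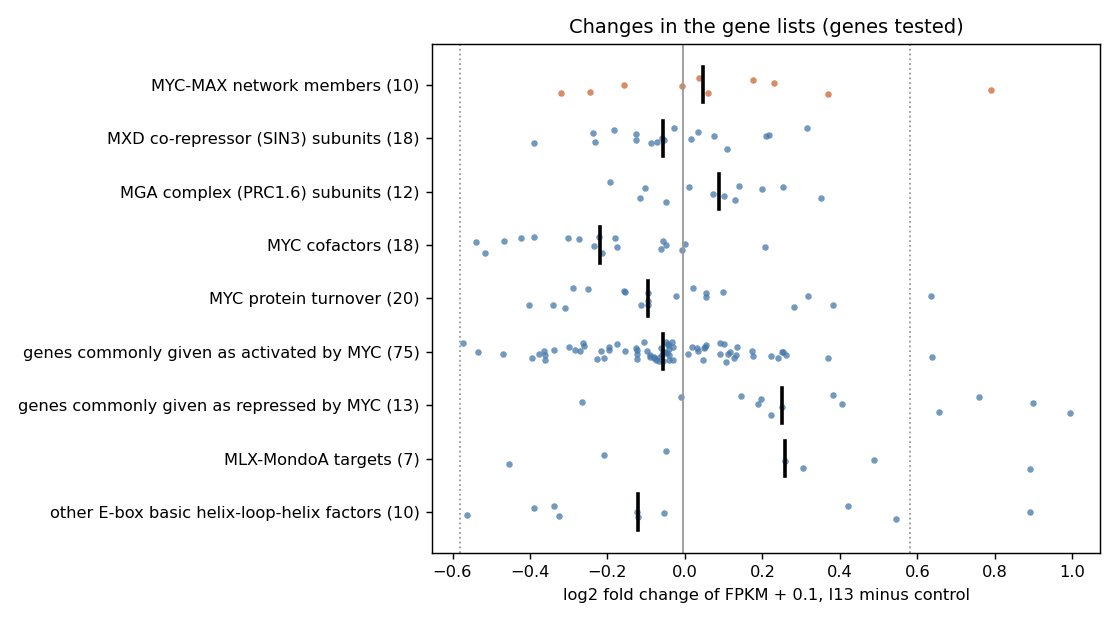
Log2 fold change of FPKM + 0.1, I13 minus control (horizontal axis), of each tested gene of the members and of the lists, with the number tested in brackets, black bars at the medians, a grey line at the median of all genes and dotted lines at 0.58 in either direction. The median is -0.22 for MYC cofactors and 0.25 for genes given as repressed by MYC, and most points lie between the dotted lines.

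Of 18 cofactors of MYC, 17 were lower after I13, with a median log2 fold change of -0.22, and 8 had an unadjusted p below 0.05 with a lower level, where 10.8% of all genes tested did. Kat5, the acetyltransferase TIP60, gave 19.9, 19.6 and 16.6 FPKM without I13 and 12.4, 11.8 and 14.3 FPKM with it. Its groups did not overlap, and the log2 fold change was -0.54 (SE 0.12, limma adjusted p = 0.113, and 0.071 with the block). Smarcb1, a core subunit of the SWI/SNF remodeller that binds MYC, had -0.51 (limma adjusted p = 0.111). Top1 was the cofactor with a higher level, with 0.21 (limma adjusted p = 0.393). With the block, 2 of the 18 (11.1%) had a limma adjusted p below 0.05, beside 2.99% of all genes tested. They were Kat2a (GCN5) and Hcfc1, with a limma adjusted p of 0.044 and 0.0464 at log2 fold changes of -0.47 and -0.39. These genes were named after their values were seen.

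Of 20 tested genes of MYC protein turnover, 8 were higher and 12 lower. With the block, 1 was called as elevated, where 1.36% of all genes tested were. This was Fbxw7, the ubiquitin ligase subunit that recognises phosphorylated MYC. It measured 15.7, 9.14 and 15.3 FPKM in the controls and 22.3, 17.0 and 21.9 FPKM after I13. All I13 samples lay above all controls, and replicate 2 was the lowest of both groups. The log2 fold change was 0.64 (SE 0.22, limma adjusted p = 0.205, and 0.0477 with the block). The blocked call was lost without any 1 pair, with an adjusted p of 0.0776, 0.305 and 0.096 from limma without replicates 1, 2 and 3. Without replicate 2 or 3 this held for every gene tested, so it is not particular to Fbxw7. The log2 fold change of Fbxw7 without the replicate 2 pair was 0.51. Leaving out control replicate 2 alone gave 0.38. Plk1 and Aurka, mitotic kinases that stabilise MYC proteins, had -0.40 and -0.34, both with no overlap of the groups and a limma adjusted p of 0.0563 and 0.0581 with the block. Skp2, another ubiquitin ligase subunit for MYC, had 0.38 (limma adjusted p = 0.527).

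No gene of the co-repressor and Polycomb partners was called in either fit. Of 18 tested SIN3 complex genes, 7 were higher and 11 lower, the median log2 fold change was -0.06, and none had a limma adjusted p below 0.05 on log2(FPKM + 0.1) with or without the block. In voom with the block Suds3 had an adjusted p of 0.0178 from limma, where 12.4% of all genes tested had one below 0.05. The scaffold genes Sin3a and Sin3b, named after their values were seen, had -0.13 and -0.06. Suds3 and Rbbp4 had -0.39 and -0.24, and Arid4b and Sap30 had 0.32 and 0.22. Of 12 genes of the MGA complex, 8 were higher and the median was 0.09. The ubiquitin ligase gene Rnf2 had control values of 12.0, 12.2 and 12.4 FPKM and I13 values of 17.4, 15.4 and 14.1 FPKM, with no overlap and a log2 fold change of 0.35 (limma adjusted p = 0.158, 0.0921 with the block and 0.0418 in voom with the block). Cbx3, Ring1 and Wdr5 had 0.25, -0.19 and -0.12.

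On the side of MLX, Mlxip lay at 8.35 to 10.6 FPKM over the 6 samples, with a log2 fold change of 0.01. Mycl and Mlxipl were not found under these names among the genes of the deposited table. Of 7 tested targets of MLX and MondoA, 4 were higher and 3 lower. Txnip, the glucose-responsive thioredoxin-interacting protein gene and the best known of these targets, gave 39.4, 24.6 and 35.4 FPKM without I13 and 67.7, 53.6 and 60.7 FPKM with it. Every I13 sample lay above every control, and replicate 2 was the lowest of both groups. The log2 fold change was 0.89 (SE 0.18, limma adjusted p = 0.109). With the block, Txnip was called as elevated (limma adjusted p = 0.0322), as 1.36% of all genes tested were. The blocked limma adjusted p was 0.0481 without replicate 1, 0.227 without replicate 2 and 0.0788 without replicate 3. In the fits without replicate 2 or 3 the call was lost for every gene, so this is not particular to Txnip. Tkt, the transketolase of the pentose phosphate pathway, passed the adjusted p with the block (limma adjusted p = 0.0459) at a log2 fold change of -0.45, under the threshold. With the block, 2.99% of all genes tested had an adjusted p below 0.05 in either direction. Klf10 and G6pdx had 0.49 and -0.21 and passed neither fit, and Klf10 had 0.14 without control replicate 1.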

How the data were processed

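mRNA of 3 control and 3 I13 samples was sequenced from stranded libraries. The authors deposited FPKM values per gene, with no scaling between samples stated and no pooling of replicates. The submitters' processing notes name Trimmomatic, HISAT2, Cufflinks and HTSeq without versions, and the build hg38, although the identifiers are those of mouse genes. FPKM values of all genes shift together if a few abundant genes change, so other scalings were tried. Coordinates and sequences are not given, since a mouse reference was not used here. Depth was recovered from the gene length and fragment numbers whose FPKM matched in all samples within 0.02 fragments, which succeeded for 22412 of 22413 genes. The totals of 16762119 to 17722950 fragments limit the precision of low genes, and counting errors cover the sampling of fragments only.

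Groups came from the sample titles, and 0 columns of samples were left out. limma 3.58.1 in R 4.3.3 was run on log2(FPKM + 0.1) with a trend in eBayes, where the mean FPKM was 0.5 or more. The pseudocount shrinks the fold changes of low genes. The fits and the recovery were tested on simulated data. Correlations of the deviations from the group means were 0.145, 0.301 and 0.219 for samples of the same number in the labels and -0.258 to 0.0503 otherwise, and on this ground the number was treated as a pairing. Deviations within a group cancel out for each gene, so these correlations are tied to each other. The block was chosen from the same data that it was used to test, so the blocked p-values depend on that choice. The labels do not say what a number stands for. Alternatives were other pseudocounts, filters and scalings, eBayes without a trend, voom on the recovered fragments, the block and single samples or pairs left out. Members and lists were chosen with earlier results of these data known. Genes named from a list were those called with or without the block, and otherwise the 2 highest and the 2 lowest log2 fold changes at a mean FPKM of 1 or more. Those most like Myc were the 5 with the highest r. Figures used matplotlib 3.10.9.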

Additional observations from a re-analysis of the deposited data

How the results depend on the processing

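Over the 19 alternatives, 177 of 190 fold changes of the members kept their sign and their side of the thresholds, 2 passed them (Mycn in the blocked fit, 0.79, and in blocked voom, 0.80) and 11 changed sign, all of Mxd3, Max or Mxd1. Mxd3 had 0.022 in TPM and 0.0053 with median-ratio scaling. When 1 sample was left out, log2 fold changes ran from -0.049 to 0.027 for Mxd3, -0.040 to 0.076 for Max, -0.13 to 0.53 for Mxd1, -0.061 to 0.11 for Mlxip, -0.23 to 0.26 for Gas2 and -0.98 to 0.27 for Ranbp1. Further ranges over 1.5 times from the value were 0.01 to 0.10 for Mxi1, 0.22 to 0.66 for Skp2, 0.10 to 0.33 for Sap30, 0.16 to 0.41 for Cbx3, 0.15 to 0.31 for Top1 and -0.17 to -0.04 for Wdr5. In the blocked fit without a pair, Max had -0.0059, Mxd3 0.026 and Mlxip -0.053 without replicate 1, Mlxip -0.058 and Ranbp1 0.35 without replicate 2, and Mxd3 0.019, Sap30 -0.0019 and Gas2 0.19 without replicate 3. Gas2 had 0.00050 with a pseudocount of 1, 0.019 in TPM, 0.0024 with median-ratio scaling and 0.016 in blocked voom. Over all genes, 4 were elevated and 1 decreased. There were 2 elevated and 0 decreased with a pseudocount of 0.01 and with median-ratio scaling, and 3 decreased both without the trend in eBayes and without a filter. The replicate block gave 166 elevated and 64 decreased genes, with 1 member elevated. Blocked voom gave 375 and 128, and called 1 member, 1 gene given as activated by MYC (Tfrc) and 3 given as repressed. In the blocked fit without replicate 1 the counts were 78 and 5, and without replicate 2 or 3 they were 0 and 0, from limma, where 1638 and 3160 genes had an unadjusted p under 0.05. Leaving out 1 sample gave 0 to 0 called genes in either direction, from limma, where 1478 to 2482 had an unadjusted p under 0.05. It gave 3 to 5 members whose groups do not overlap, with 5 without control replicate 2 and without I13 replicate 3. Smaller groups overlap less readily, and the share of all genes is not given for these settings, so the counts are not a result about the members. Rescaling to TPM gave 2 such members. Beside Mycn and the marker genes, the block changed the call of Fbxw7, Txnip and Bhlhe40 and of no other gene named. The cause of the other shifts was not tested. Depth limits Mxd3 and Mxd1 most, with 137 and 183 fragments in their lowest libraries.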

Other observations

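Of 10 tested other basic helix-loop-helix factors that bind E-boxes, 3 were higher and 7 lower after I13. None was called without the block and 1, Bhlhe40, was elevated with it, where 1.36% of all genes tested were. An unadjusted p below 0.05 was seen in 5 of 10, beside 18.6% of all genes tested. Bhlhe40, a repressor that responds to stress and circadian signals, measured 31.996, 15.3 and 25.9 FPKM in the controls and 46.6, 36.6 and 47.5 FPKM after I13. Every I13 sample lay above every control, with a log2 fold change of 0.89 (SE 0.26, limma adjusted p = 0.158), and it was called as elevated with the block (limma adjusted p = 0.0451). Without the replicate 2 pair the blocked adjusted p was 0.291 from limma, and without replicate 3 it was 0.102. In both of these fits the call was lost for every gene, so this is not particular to Bhlhe40. Leaving out control replicate 2 alone gave a log2 fold change of 0.59. Clock, a circadian activator, had a log2 fold change of 0.55 (limma adjusted p = 0.115). Srebf1, a regulator of lipid synthesis, and Usf2 had -0.56 and -0.39, with no overlap of the groups and a limma adjusted p of 0.115 and 0.213.

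Among the marker genes, Csf2rb and Csf2rb2, paralogs whose reads may be split uncertainly, were called as elevated with the block, with log2 fold changes of 0.83 and 1.02 (adjusted p = 0.0313 and 0.0312 from limma with the block, and 0.22 and 0.165 without it). With the block, 1.36% of all genes tested were elevated. The groups overlapped for Csf2rb, with control replicate 3 above I13 replicate 1. In the blocked fit without replicate 2 or 3 no gene was called, these included (from limma, 1638 and 3160 genes had an unadjusted p under 0.05). Hba-a1, an erythroid marker with a near-identical copy, was also called with the block (limma adjusted p = 0.0384, and 0.116 without the block) at 0.21 to 1.18 FPKM in the controls and 2.11 to 5.66 FPKM after I13. The 1 fibroblast and epithelial marker listed, Col1a1, stayed at or below 0.13 FPKM.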
